A study of Mus musculus with 6 samples.

Results

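The genes described here are the heat shock proteins, the J-domain proteins, the heat shock factors and the BAG genes of mouse leukaemia cells, measured with and without induced loss of Chaf1b. Members were chosen by symbol: names beginning with Hspa, Hspb, Hspd, Hspe, Hsph or Hsp90a, Dnaja, Dnajb or Dnajc with a number, Hsf with a number, and Bag1 to Bag6. The endoplasmic reticulum genes Hspa5, Hsp90b1, Dnajb9, Dnajb11, Dnajc3 and Dnajc10 were left out. Of 80 matching symbols, 63 reached 1 TPM (a transcript level corrected for gene length and library total) in at least 3 of 6 libraries and were tested, among 13575 tested genes in all. The name patterns reach beyond the cytosol: at least 8 of the 63 encode mitochondrial proteins, at least 5 encode proteins of the endoplasmic reticulum, and Dnajc19-ps is a processed pseudogene. Another 36 were put under cytosol, nucleus or not assigned, so the compartment counts may be low.

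The cells were a retroviral MLL-AF9 line of mouse acute myeloid leukaemia, grown with SCF, IL6 and IL3, and all carried floxed Chaf1b alleles and CreERT2. The 3 KO libraries came from cells given B-estradiol, which turns the recombinase on, and the 3 WT libraries from the same floxed, CreERT2-carrying cells given ethanol vehicle. The ligand was given for 48 hours. The labels do not say whether replicates were separate cultures or clones; if they were not, the p-values reflect technical spread alone. The ligand and the deletion were given together and cannot be told apart.

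HSP70 proteins bind unfolded stretches of other proteins in cycles of ATP binding and hydrolysis. J-domain proteins bring them clients and speed the hydrolysis, while HSP110, BAG and HSPBP1 proteins release the nucleotide so that the cycle can start again. HSP90 takes partly folded clients from HSP70, steroid receptors among them: the hormone-binding domain that CreERT2 carries is held by HSP90 until its ligand binds. HSF1 is the transcription factor that raises many of these genes when unfolded protein accumulates.

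The targeted gene was checked first. Chaf1b, a subunit of the chromatin assembly factor CAF-1, was at 17.7, 14.4 and 14.2 TPM in KO replicates 1, 2 and 3 and at 48.6, 49.0 and 50.6 TPM in WT replicates 1, 2 and 3. The groups did not overlap. Of 15 myeloid and MLL-AF9 marker genes 14 passed the filter, with a summed level of 5444 to 8077 TPM in KO and 2923 to 3098 TPM in WT libraries, and Csf1r did not pass. Of the 14, 4 were called higher and 2 lower in KO, against 12.9% and 6.11% of all tested genes. Of 7 B cell markers 4 passed the filter and all 4 were called higher in KO, where 12.9% of all tested genes were. Their sums over the list were 33.9 to 48.4 TPM in KO and 19.1 to 22.9 TPM in WT, while Ms4a1 was listed at 0 throughout. Of 8 T and NK cell markers 2 passed and 1 was called higher (12.9% of all tested genes). Sums were 21.3 to 25.8 TPM in KO and 8.9 to 15.9 TPM in WT, and Cd4, Cd8a and Ncr1 were listed at 0 throughout. Of 8 stromal and endothelial markers 4 passed and 2 were called higher (12.9% of all tested genes), with sums of 103.8 to 167.7 TPM in KO and 75.9 to 100.9 TPM in WT and Kdr at 0. Of 9 erythroid markers 6 passed and 2 were called higher (12.9% of all tested genes), with sums of 232.1 to 252.5 TPM in KO and 243.1 to 267.7 TPM in WT. WT replicate 1, whose column header carries a note of a replacement that is not explained, stood apart from the other WT libraries: 8 late granulocyte markers summed to 281.9 TPM there, against 69.8 and 88.8 TPM in WT replicates 2 and 3 and 394.3 to 955.5 TPM in KO. The part of these markers in the results on chaperones was not tested, and in bulk RNA fewer cells of a type cannot be told apart from less RNA per cell.

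Members were called about as often as all tested genes, 11 of 63 (17.5%) against 19.0%. The largest changes among them were in a few HSP70 and J-domain genes. Of the 63 members, 5 were called higher in KO (7.94%; 12.9% of all tested genes) and 6 were called lower (9.52%; 6.11% of all tested genes) by limma at an adjusted p under 0.05. The genes that rose were Hspa1a, Hspa1b, Hspa2, Dnajc12 and Dnajc22, and those that fell were Hspa9, Bag2, Hsf1, Dnaja2, Dnajc11 and Dnajc17. Under quantile normalization the same test gave 5 higher (9.92% of all tested genes) and 12 lower (12.7% of all tested genes). The median log2 fold change was -0.10 over the members and 0.01 over all tested genes, and 57 of the 63 members changed by less than 0.5 on that scale in either direction. The share of all tested genes under 0.5 was not counted. KO values lay below every WT value for 20 members (31.7%; 19.5% of all tested genes) and above every WT value for 8 (12.7%; 23.4% of all tested genes).

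**Figure D1:**
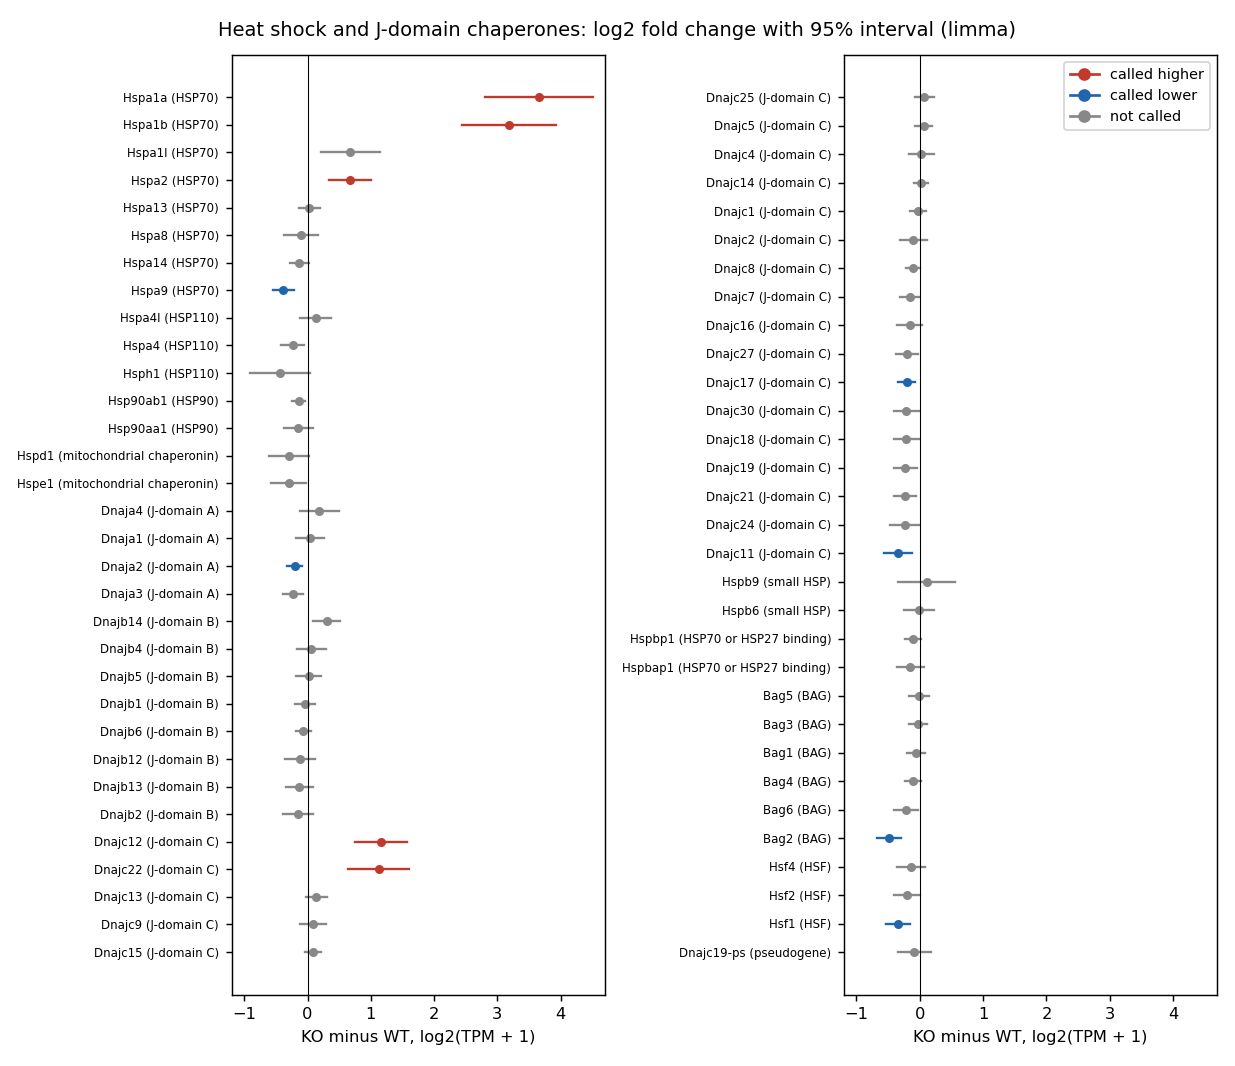
Difference between KO and WT means on the log2(TPM + 1) scale (horizontal axis) for the 63 tested members, grouped by role, with the 95% interval from limma as a line. Red marks the 5 members called higher, blue the 6 called lower and grey the 52 not called; Hspa1a and Hspa1b lie far to the right of all others.

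Which members passed depended on the libraries compared, as it did across all genes. Without KO replicate 3, WT replicate 2 or WT replicate 3, limma called 0 members, while 15, 16 and 16 had an unadjusted p under 0.05; it called 0.0%, 0.184% and 0.11% of all tested genes. Without KO replicate 2 the member calls were Hspa1a and Hspa1b, both higher (0.781% of all tested genes). Without KO replicate 1, 6 members were higher (15.2% of all tested genes) and 12 lower (11.9% of all tested genes). Without WT replicate 1, 6 members were higher (21.6% of all tested genes) and 17 lower (14.2% of all tested genes), and in both cases all 11 calls were kept.

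The largest change was in the stress-inducible HSP70 pair. Hspa1a (chr17:34969190-34972156) and Hspa1b (chr17:34956436-34959238) each encode the HSP70 that cells make on heat or other protein damage, and lie 9951 bases apart on the minus strand. Hspa1a was at 17.3, 41.4 and 36.2 TPM in KO replicates 1, 2 and 3 and at 0.8, 1.9 and 1.8 TPM in WT replicates 1, 2 and 3. Hspa1b was at 19.8, 43.1 and 35.5 TPM in KO and at 1.7, 3.0 and 3.1 TPM in WT. Every KO library lay far above every WT library, and replicate 1 was the lowest of its group on both sides. The Hspa1a mean was 31.6 ± 12.7 TPM in KO and 1.5 ± 0.61 TPM in WT (SD, n = 3), a ratio of 21.1, with a log2(TPM + 1) fold change of 3.65 (SE 0.35, limma adjusted p = 0.011). Hspa1b rose from 2.6 ± 0.78 to 32.8 ± 11.9 TPM, a ratio of 12.6 (log2 fold change 3.19, SE 0.31, limma adjusted p = 0.011). Over the alternatives the log2 fold change ran from 2.43 to 4.30 for Hspa1a and from 2.27 to 3.58 for Hspa1b.

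The promoters of the pair are shown because the genes rose together and are near copies. These are the 250 bases before the RefSeq start site (GRCm38.p6, minus strand; chr17:34972157-34972406 for Hspa1a and chr17:34959239-34959488 for Hspa1b), which differ at 3 of the 250 positions. Capitals mark GAAGATTC, the one match in each to a pair of inverted heat shock units, searched as GAANNTTC or TTCNNGAA (each its own reverse complement), 104 to 97 bases before the start site.
Hspa1a: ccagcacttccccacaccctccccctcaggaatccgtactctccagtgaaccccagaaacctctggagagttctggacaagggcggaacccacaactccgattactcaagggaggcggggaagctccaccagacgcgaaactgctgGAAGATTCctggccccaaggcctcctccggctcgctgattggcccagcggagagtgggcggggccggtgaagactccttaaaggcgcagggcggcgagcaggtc
Hspa1b: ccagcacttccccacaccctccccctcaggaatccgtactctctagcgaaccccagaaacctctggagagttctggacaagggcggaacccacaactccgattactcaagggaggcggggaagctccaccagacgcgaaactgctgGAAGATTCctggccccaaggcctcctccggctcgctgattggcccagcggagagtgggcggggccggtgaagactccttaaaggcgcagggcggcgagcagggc

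The transcripts are alike too: 47.1% of the 2868 windows of 100 bases in the Hspa1a transcript occur unchanged in that of Hspa1b. The sources used here do not say how reads that fit both copies were counted, so the division between them is uncertain. The summed TPM depends on that division only through the gene lengths (transcripts of 2967 bases for Hspa1a and 2803 for Hspa1b). It lacks any reads left out for fitting both. The summed TPM was 37.1, 84.5 and 71.7 in KO replicates 1, 2 and 3 and 2.5, 4.9 and 4.9 in WT replicates 1, 2 and 3. Taken as 1 gene, an alternative added after seeing the data, the pair was higher by 3.64 on the log2 scale (SE 0.35, limma adjusted p = 0.0114). Hspa1a also overlaps Gm20481 on the other strand.

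Even in KO the inducible pair stayed a small part of cytosolic HSP70 RNA, because the constitutive gene Hspa8 was so abundant. The pair made up 2.66% ± 1.09 of the summed TPM of cytosolic HSP70 genes in KO and 0.157% ± 0.034 in WT (SD, n = 3). Hspa8, which folds new proteins in unstressed cells and ranked 35 of 13575 genes by mean TPM, was at 2413, 2182 and 2342 TPM in KO replicates 1, 2 and 3 and at 2068, 2714 and 2691 TPM in WT replicates 1, 2 and 3. WT replicate 1 was the lowest of the 6 libraries and KO lay between it and the other WT libraries. Hspa8 was not called (log2 fold change -0.10, 95% interval -0.37 to 0.17, limma adjusted p = 0.56). Without WT replicate 1 it was called lower (-0.23, adjusted p = 0.028).

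**Figure D2:**
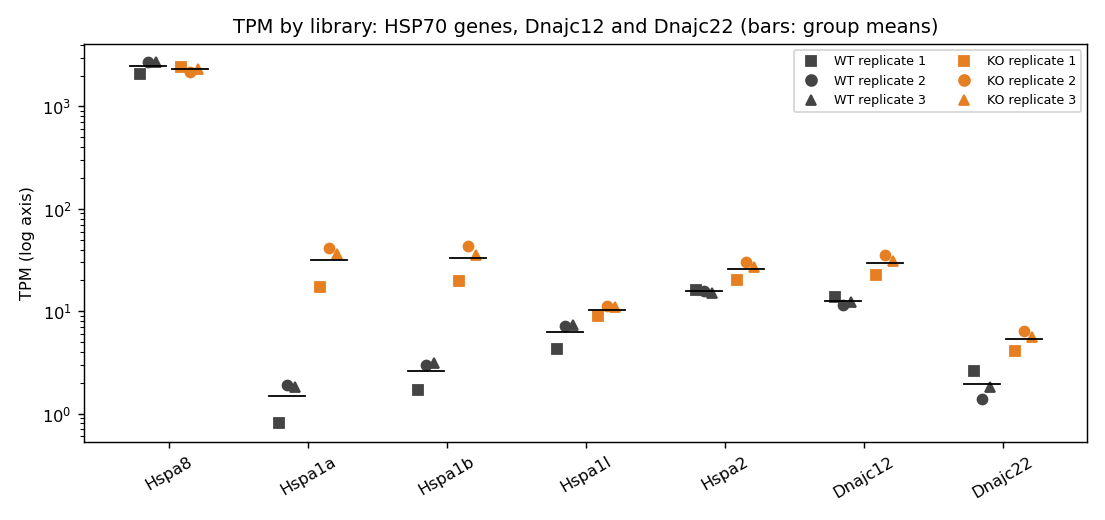
TPM on a log axis for 5 HSP70 genes, Dnajc12 and Dnajc22 in each library, with squares, circles and triangles for replicates 1, 2 and 3, grey for WT, orange for KO and bars for group means. Hspa1a and Hspa1b sit between 0.8 and 3.1 TPM in WT and between 17.3 and 43.1 TPM in KO, while Hspa8 stays at 2068 TPM or more in every library.

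Hspa2 and Hspa1l, HSP70 genes best known from the testis, were also higher in KO libraries. Hspa2 (chr12:76404176-76406938) was at 20.3, 30 and 26.9 TPM in KO replicates 1, 2 and 3 and at 16.1, 15.7 and 15 TPM in WT replicates 1, 2 and 3, with no overlap. It rose by 0.67 on the log2 scale (SE 0.14, limma adjusted p = 0.027). Hspa1l starts 546 bases from the start of Hspa1a and runs the other way. Its values were 8.9, 11.3 and 10.9 TPM in KO and 4.3, 7.1 and 7.3 TPM in WT, without overlap but not called (log2 fold change 0.67, 95% interval 0.21 to 1.14, adjusted p = 0.056). In 4.67% of its 100-base windows the Hspa1a transcript is identical to that of Hspa1l. Without WT replicate 1 Hspa1l was called higher (0.46, adjusted p = 0.030).

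Other genes around the HSP70 cluster on chromosome 17 were looked up after these values were seen. Within 100 kb on either side, 13 other genes were tested and 4 of them were called higher (limma; 12.9% of all tested genes): Slc44a4, Neu1, Sapcd1 and Ddah2, by 0.80, 0.42, 0.83 and 0.71 on the log2 scale. The median over the 13 was -0.09, and the nearest tested coding genes on each side, Neu1 and Lsm2, differed in sign: Neu1 rose from 162 to 216 TPM, and Lsm2 averaged 64.6 TPM in WT libraries and 52.1 TPM in KO libraries (log2 fold change -0.31, adjusted p = 0.054). The fold changes of Hspa1a and Hspa1b exceeded those of all 13.

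The remaining HSP70 genes sit in other places. Hspa9, or mortalin, is the HSP70 of the mitochondrial matrix and helps pull proteins across the inner membrane. It was at 533.1, 451.8 and 458.9 TPM in KO replicates 1, 2 and 3 and at 623.7, 622.7 and 632.8 TPM in WT replicates 1, 2 and 3. KO lay below all WT libraries, which were close together, and Hspa9 fell by 0.38 on the log2 scale (SE 0.07, limma adjusted p = 0.021). Hspa13, of the endoplasmic reticulum, and Hspa14, which works at the ribosome, had log2 fold changes of 0.03 and -0.13 and were not called (adjusted p = 0.80 and 0.20).

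The HSP110 proteins release ADP from HSP70, and Hsph1 is among the genes most readily raised by heat. Hsph1 was at 45.6, 33.1 and 33.9 TPM in KO replicates 1, 2 and 3 and at 38.5, 58.7 and 56.6 TPM in WT replicates 1, 2 and 3. WT replicate 1 lay inside the KO range and the other WT libraries above it. The log2 fold change was -0.43 (95% interval -0.90 to 0.04, limma adjusted p = 0.16), and without WT replicate 1 it was -0.62 and called lower (adjusted p = 0.032). Hspa4, an HSP110 protein too, was at 252.0, 230.6 and 229.9 TPM in KO against 254.2, 294.6 and 291.9 TPM in WT. WT replicate 1 lay just above the highest KO library, and among 17 alternatives Hspa4 was called lower only when WT replicate 1 was left out, alone or with KO replicate 1. Hspa4l averaged 14.8 ± 0.85 TPM in KO against 13.5 ± 1.70 TPM in WT (SD, n = 3; adjusted p = 0.39).

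The HSP90 genes were the most abundant of the set besides Hspa8. Hsp90aa1, the heat-inducible form, was at 1134, 1023 and 1069 TPM in KO replicates 1, 2 and 3 and at 1030, 1259 and 1293 TPM in WT replicates 1, 2 and 3. The constitutive Hsp90ab1, which ranked 33 of 13575 genes, was at 2387, 2198 and 2297 TPM in KO and at 2499, 2510 and 2572 TPM in WT. For Hsp90ab1 the groups were apart, for Hsp90aa1 WT replicate 1 lay among the KO libraries, and neither was called (log2 fold changes -0.14 and -0.14, limma adjusted p = 0.060 and 0.30). Without WT replicate 1 Hsp90aa1 was called lower (-0.25, adjusted p = 0.026).

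The mitochondrial chaperonin encloses proteins in a barrel, Hspd1 (HSP60), under a lid, Hspe1 (HSP10). The genes overlap head to head on chromosome 1 and have a start region in common. Hspd1 was at 384.1, 328.0 and 345.1 TPM in KO replicates 1, 2 and 3 and at 351.6, 478.2 and 472.5 TPM in WT replicates 1, 2 and 3, and Hspe1 at 446.1, 383.2 and 412.0 TPM in KO and 431.8, 564.8 and 538.6 TPM in WT. In both, WT replicate 1 fell within the KO range and WT replicates 2 and 3 lay above all KO libraries. Neither was called (log2 fold changes -0.29 and -0.30, limma adjusted p = 0.16 and 0.11), and both were called lower without WT replicate 1 (-0.43 and -0.42, adjusted p = 0.020 for each). Of the 8 members assigned to mitochondria 2 fell (6.11% of all tested genes), Hspa9 and Dnajc11, and 7 had negative fold changes, with a median of -0.26.

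**Figure D3:**
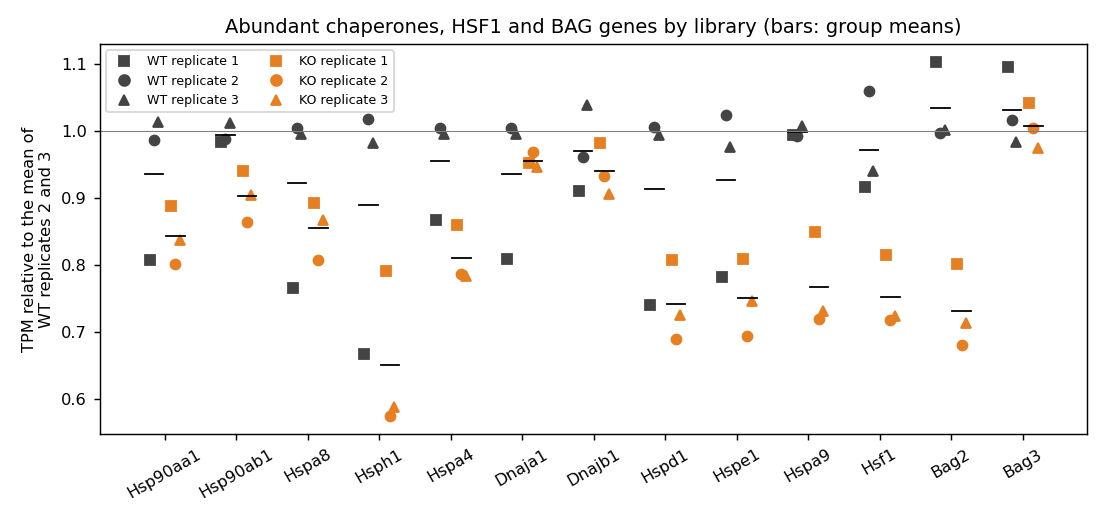
TPM of 13 chaperone, HSF1 and BAG genes in each library, divided by the mean of WT replicates 2 and 3 (vertical axis), with squares, circles and triangles for replicates 1, 2 and 3, grey for WT, orange for KO and bars for group means. In Hsph1, Hspa8, Hspd1, Hspe1 and Hsp90aa1 the WT replicate 1 square lies far below the other WT symbols, and in Hspa9 the 3 WT symbols lie together above KO.

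Triple heat shock units, searched as GAANNTTC extended by NNGAA and, for the other strand, TTCNNGAA extended by NNTTC, were found near the start sites of Hsph1, Hspd1, Hspe1 and Dnajb6. They occur in 0.603% of all 32851 RefSeq promoter windows of 300 bases. Of the 63 members 47 had such a window, and 4 of these held the triple (8.51%). Because Hspd1 and Hspe1 overlap at their starts, the same site may count for both, which was not checked. The pair motif, which each triple contains, was in 12 of the 47 members (25.5%) and in 15.1% of all windows. Members were counted by gene, over all windows of the gene, so the shares of members and of windows are in unlike units. Of the 12, the 2 called higher were Hspa1a and Hspa1b, and the other 10 were not called. The sites of Hsph1 and Hspe1 are shown with 30 bases each, to set beside the promoters of the pair that rose (chr5:149636279-149636308, minus strand, just after the start site of Hsph1, and chr1:55088051-55088080, plus strand, before that of Hspe1). Capitals mark the first triple in each stretch. In Hspe1 a further unit follows in small letters and makes another triple, which overlaps the one in capitals.
Hsph1: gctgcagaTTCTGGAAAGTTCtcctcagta
Hspe1: acggtccgTTCTAGAACCTTCcggaaggcc

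The J-domain genes of classes A and B, the closest kin of the bacterial DnaJ, differed little. Dnajb1, the main J-domain partner of HSP70 in the heat shock response, was at 47.4, 45.0 and 43.7 TPM in KO replicates 1, 2 and 3 and at 43.9, 46.4 and 50.1 TPM in WT replicates 1, 2 and 3. The groups overlapped fully (log2 fold change -0.04, 95% interval -0.20 to 0.12, limma adjusted p = 0.67). Dnaja1, which is also raised by heat, averaged 59.9 ± 0.72 TPM in KO against 58.7 ± 6.93 TPM in WT (SD, n = 3; adjusted p = 0.80). Dnaja2, a partner of HSP70 in refolding, was at 258.4, 242.0 and 237.6 TPM in KO and at 277.2, 291.9 and 279.6 TPM in WT, and fell by 0.20 on the log2 scale (adjusted p = 0.039). That call held in 10 of 17 alternatives. Among those that ended it were quantile normalization, leaving out the variance trend and taking the replicate number as a block. Dnaja3, the mitochondrial class A protein, was below WT in every KO library and was not called (62.1 ± 3.75 against 72.8 ± 3.36 TPM, adjusted p = 0.053).

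Class C proteins have little in common outside the J domain and include the members with the largest changes after Hspa1a and Hspa1b. Dnajc12 (chr10:63382443-63410576), which partners HSP70 in folding the aromatic amino acid hydroxylases, was at 22.4, 35.5 and 30.8 TPM in KO replicates 1, 2 and 3 and at 13.9, 11.5 and 12.2 TPM in WT replicates 1, 2 and 3. It rose 2.36-fold (log2 fold change 1.16, SE 0.17, limma adjusted p = 0.015). Dnajc22 (chr15:99093170-99104737) was at 4.1, 6.4 and 5.6 TPM in KO and at 2.6, 1.4 and 1.8 TPM in WT. Its mean TPM rose 2.78-fold (log2(TPM + 1) fold change 1.12, SE 0.20, limma adjusted p = 0.020). Over the alternatives the log2 fold change ran from 0.96 to 1.41 for Dnajc12 and from 0.58 to 1.45 for Dnajc22. In both genes KO replicate 1 was the KO library nearest to WT and WT replicate 1 the WT library nearest to KO.

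Falls among class C were smaller. Dnajc11, of the mitochondrial membrane-shaping complex, was at 27.0, 22.8 and 23.5 TPM in KO replicates 1, 2 and 3 and at 28.5, 34.1 and 31.2 TPM in WT replicates 1, 2 and 3, and fell by 0.34 on the log2 scale (limma adjusted p = 0.049). Of 17 alternatives 10 ended this call. Dnajc17, a nuclear protein tied to splicing, fell from 25.7 ± 0.26 to 22.1 ± 0.99 TPM (SD, n = 3; adjusted p = 0.046), and overlaps Zfyve19 on the other strand. Its call held in 11 of 17 alternatives, and was lost, among others, without the variance trend (0.053) and with the replicate number as a block. The pieces of the inner membrane import motor, Dnajc19 and Dnajc15, had log2 fold changes of -0.23 and 0.08 (adjusted p = 0.079 and 0.30).

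Dnajc9 binds histones H3 and H4 and so works beside the same cargo as CAF-1. It was at 246.9, 252.5 and 241.0 TPM in KO replicates 1, 2 and 3 and at 204.1, 252.8 and 244.2 TPM in WT replicates 1, 2 and 3. WT replicate 1 was lowest and the other 5 libraries lay within a narrow range. Dnajc9 was not called (log2 fold change 0.08, 95% interval -0.12 to 0.29, limma adjusted p = 0.51). Dnajc2, a ribosome-bound J-domain protein that also acts on chromatin, and Dnajc21, a ribosome assembly factor, were not called (log2 fold changes -0.10 and -0.23, adjusted p = 0.43 and 0.069).

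Of all 34 J-domain members, 2 rose (12.9% of all tested genes) and 3 fell (6.11% of all tested genes). For 27 of the 29 that were not called, the 95% interval of the log2 fold change lay within 0.5 of zero on both sides. Among the uncalled, Dnajb14 had a log2 fold change of 0.30 (95% interval 0.09 to 0.51, limma adjusted p = 0.060). Dnajb13, with 14.6 ± 0.15 TPM in KO against 16.1 ± 1.99 TPM in WT (SD, n = 3), overlaps Ucp2 on the other strand. In all, 25 of the 63 members overlap a gene on the other strand, and although the libraries were stranded, the strand setting of the counting is unknown here, so their values are uncertain. Of the 11 called members these are Hspa1a, Bag2 and Dnajc17.

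The BAG proteins release nucleotide from HSP70 and link it to other systems. Bag2, which also holds back the ubiquitin ligase CHIP (Stub1), was at 36.4, 30.9 and 32.4 TPM in KO replicates 1, 2 and 3 and at 50.1, 45.3 and 45.5 TPM in WT replicates 1, 2 and 3. The groups were well apart, and Bag2 fell by 0.49 on the log2 scale (SE 0.08, limma adjusted p = 0.016), the largest fall of any member in the comparison of all 6 libraries. Bag3, which HSF1 raises under stress and which feeds HSP70 clients to autophagy, was at 60.8, 58.6 and 56.9 TPM in KO and at 63.9, 59.3 and 57.4 TPM in WT, with overlap (log2 fold change -0.03, 95% interval -0.17 to 0.11, adjusted p = 0.71). Bag1, Bag4, Bag5 and Bag6 had log2 fold changes of -0.06, -0.10, -0.01 and -0.22 and were not called (adjusted p = 0.49, 0.20, 0.92 and 0.094).

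Hsf1 itself was lower in KO. It was at 13.6, 12.0 and 12.1 TPM in KO replicates 1, 2 and 3 and at 15.3, 17.7 and 15.7 TPM in WT replicates 1, 2 and 3, without overlap, and fell by 0.34 on the log2 scale (SE 0.08, limma adjusted p = 0.037). Hsf2, a factor that pairs with HSF1, was at 5.7, 5.2 and 5.4 TPM in KO and at 5.7, 6.8 and 6.8 TPM in WT, and was not called (log2 fold change -0.21, adjusted p = 0.13). The activity of HSF1 depends on its modification and binding partners, which RNA levels do not measure. Hsf4 averaged 1.3 ± 0.1 TPM in KO against 1.53 ± 0.15 TPM in WT (SD, n = 3; adjusted p = 0.30).

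Small heat shock proteins, which hold unfolded proteins without using ATP, were scarce. Hspb6 and Hspb9 passed the filter and were not called (log2 fold changes -0.01 and 0.11, limma adjusted p = 0.94 and 0.71). Hspb6 overlaps Lin37 and Proser3 on the other strand. Hspb1 (HSP27), an HSF1 target, did not pass the filter: the KO libraries read 0.4, 1.3 and 1.3 TPM and the WT libraries 0.0, 0.1 and 0.1 TPM. Of the 17 members not tested, 5 had every KO value above every WT value (29.4%): Hspb1, Hspa12a, Dnajb8, Dnajc6 and Dnajc28, none of them above 1.3 TPM. The same held for 9.36% of all 22294 genes not tested, and for 22.4% of the 9309 of these above 0 in a library. Dnajc5g, Hsf3 and Hspb7 were listed at 0 in all libraries. The HSP70 exchange factor Hspbp1 averaged 43.7 ± 1.49 TPM in KO against 47.3 ± 1.36 TPM in WT (SD, n = 3; limma adjusted p = 0.16).

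WT replicate 1 was the lowest WT library for 37 of the 63 members (58.7%; 43.3% of all tested genes) and the highest for 20 (31.7%; 43.1% of all tested genes). The 11 members called lower without it but not with all 6 libraries were Hsph1, Hspa4, Hspa8, Hsp90aa1, Hspd1, Hspe1, Hsf2, Dnaja3, Dnajc2, Dnajc19 and Hspbap1. Of these, Dnaja3, Dnajc19 and Hsf2 were also called lower under an alternative that kept it. KO replicate 1 was the lowest KO library for each of the 5 genes that rose and the highest for 5 of the 6 that fell. It lay on the WT side of the other KO libraries for 87.3% of members and for 84.1% of all tested genes. Without KO replicate 1 and WT replicate 1 together, 8 members were higher (28.4% of all tested genes) and 29 lower (27.3% of all tested genes).

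**Figure D4:**
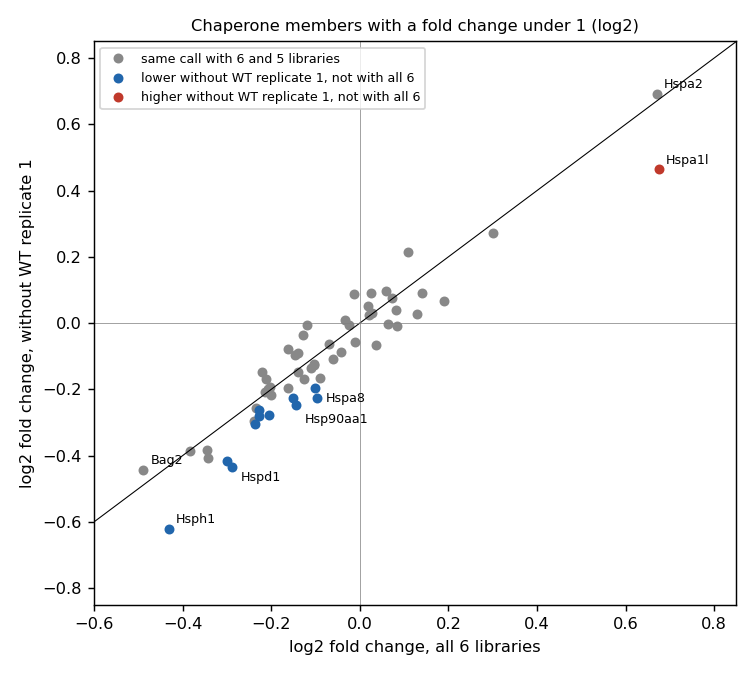
Log2 fold change of each member with all 6 libraries (horizontal axis) against that without WT replicate 1 (vertical axis), for the 59 members under 1 on the horizontal axis; the line marks equal values. Blue points, called lower without WT replicate 1 but not with all 6 libraries, lie below the line, with Hsph1 at -0.43 and -0.62. Hspa1l, in red, was called higher without that library but not with all 6.

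The wider chaperone system was read from lists of genes outside the name patterns. Of 27 HSP90 co-chaperones 4 fell (limma; 6.11% of all tested genes): Ppp5c, a phosphatase that acts on HSP90 clients, from 76.9 ± 1.70 to 56.9 ± 5.90 TPM (SD, n = 3), Stub1, the CHIP ubiquitin ligase, Rpap3, and Cdc37, which loads kinases onto HSP90. The last 3 fell by 0.23, 0.24 and 0.26 on the log2 scale, and the list median was -0.21. Of 16 genes of the TRiC chaperonin, which folds actin and tubulin, and of prefoldin, its feeder, 3 fell: Cct7 from 570 ± 6.98 to 459 ± 35.5 TPM, and Cct2 and Pfdn2 by 0.26 and 0.25 on the log2 scale. The list median was -0.25. Without WT replicate 1 the numbers called lower were 15 of the 27 and 12 of the 16 (14.2% of all tested genes).

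Of 13 mitochondrial chaperones and proteases 2 fell (6.11% of all tested genes), Afg3l1 by 0.43 and Clpp by 0.28 on the log2 scale, and Trap1, the mitochondrial HSP90, averaged 82.2 TPM in WT libraries and 69.4 TPM in KO libraries (limma adjusted p = 0.062). Among 19 HSF1-inducible genes outside the name patterns, 2 rose (12.9% of all tested genes) and 1 fell (6.11% of all tested genes), and without WT replicate 1 the number called lower was 10 (14.2% of all tested genes). Ier5, which also acts back on HSF1, rose from 26.8 ± 4.87 to 39.2 ± 1.85 TPM (SD, n = 3; adjusted p = 0.035), Mlf1 rose by 0.50 on the log2 scale, and the gene that fell was Cct2. The Ier5 call held in 10 of 17 alternatives and the Mlf1 call in 8 of 16. Among the alternatives that ended them were leaving out KO replicate 1 for Ier5 and WT replicate 1 for Mlf1. Stip1, Ahsa1 and Fkbp4, HSP90 partners that heat raises, had log2 fold changes of -0.26, -0.30 and -0.28 and were not called (adjusted p = 0.062, 0.068 and 0.055). Over all 78 tested partner genes, each counted once, 2 rose (12.9% of all tested genes) and 9 fell (6.11% of all tested genes), and the median log2 fold change was -0.16. Without WT replicate 1, 33 were called lower, and without KO replicate 1, 30 were (14.2% and 11.9% of all tested genes).

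**Figure D5:**
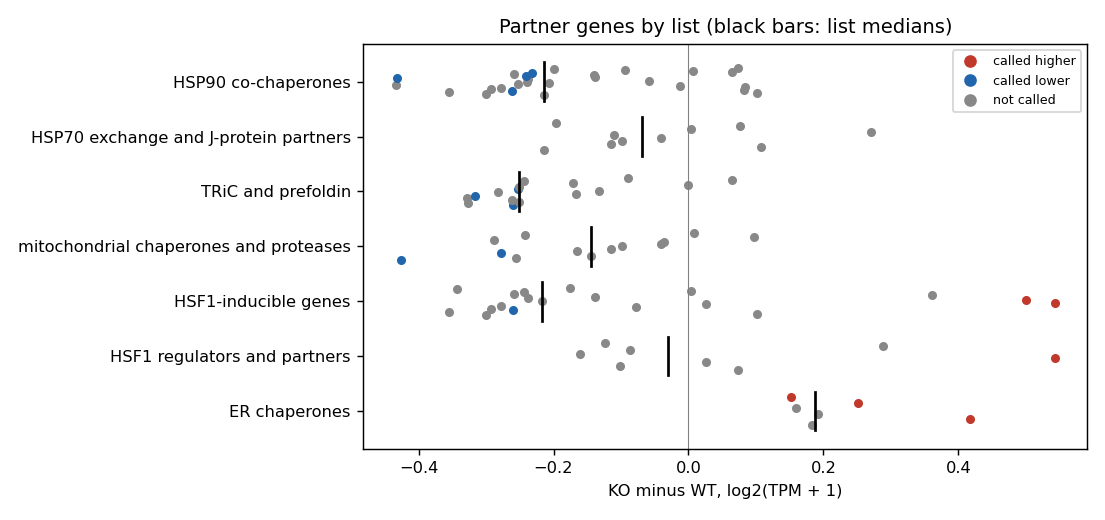
Log2 fold change on the log2(TPM + 1) scale (horizontal axis) of each gene in the partner lists and of the 6 endoplasmic reticulum genes left out by the rule, with red for called higher, blue for called lower, grey for not called and a black bar for the list median. The endoplasmic reticulum genes all lie to the right of zero, and the medians of the other lists lie to its left.

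The endoplasmic reticulum counterparts left out by the rule lay on the other side. All 6 had KO values above every WT value (23.4% of all tested genes), and 3 were called higher (limma; 12.9% of all tested genes). Hspa5 (BiP), the HSP70 of that compartment, went from 564 ± 12.9 to 626 ± 11.7 TPM (SD, n = 3; adjusted p = 0.041), Hsp90b1 (GRP94) from 1200.0 ± 58.5 to 1428 ± 65.4 TPM (adjusted p = 0.030) and Dnajb9 from 52.4 ± 2.61 to 70.2 ± 2.96 TPM (adjusted p = 0.014). Dnajb11, Dnajc10 and Dnajc3 had log2 fold changes of 0.18, 0.19 and 0.16 and were not called (adjusted p = 0.052, 0.068 and 0.11). The calls of Hspa5, Hsp90b1 and Dnajb9 were lost without KO replicate 2, KO replicate 3, WT replicate 2 or WT replicate 3, and with the replicate number as a block. That of Hspa5 was also lost under median-ratio scaling and without the variance trend, and that of Hsp90b1 under quantile normalization. The difference between these genes and the cytosolic ones was not tested. The 5 members assigned to the endoplasmic reticulum that the rule kept did not lie to one side. Their median log2 fold change was -0.03, with 2 positive and 3 negative.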

How the data were processed

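RNA was compared between 3 KO and 3 WT libraries, grouped by the genotype in the labels. The submitters' processing notes name mm10, featureCounts 1.6.2, STAR 2.6.1e, cutadapt 1.9.1 and Trim Galore 0.4.2. Libraries were poly-A selected and stranded, per the labels' protocols. Annotation, strand setting, reads mapping to several places and the step to TPM: not given in the sources used here. What the authors deposited was TPM per gene symbol, rounded to 1 decimal. TPM keeps no depth, so counting error is unknown and no count model was run.

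Members were the symbols matching the heat shock, J-domain, HSF and BAG name patterns, without 6 endoplasmic reticulum genes, at 1 TPM or more in at least 3 libraries. The members and lists were chosen with earlier results of these data known. All 13575 genes passing that filter were fitted with limma 3.58.1 under R 4.3.3, using log2(TPM + 1), 1 term for genotype and a variance trend over mean level; p-values were two-sided and adjusted by Benjamini-Hochberg across the whole table. Genes were called at an adjusted p under 0.05. Named were all called members, the main inducible and constitutive chaperones, Hsf1, Hsf2, Dnajc9, the BAG genes, the uncalled members with the largest fold changes, and up to 4 called genes of each partner list; other names were chosen after their values were seen. The fit was tested on simulated data. Promoter windows came from RefSeq (GRCm38.p6, the assembly named mm10) and gene positions from GENCODE M21 on that assembly. Alternatives were other pseudocounts, filters, scalings and variance models, the replicate number as a block, leaving out libraries, and, added after seeing the data, Hspa1a and Hspa1b as 1 gene.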

Additional observations from a re-analysis of the deposited data

How the results depend on the processing

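Pseudocounts, filters and variance models left the members called higher at 4 to 5 and those called lower at 4 to 6. Under quantile normalization 12 members were called lower and Dnajb5, uncalled with the TPM as deposited, was called lower at -0.32 on the log2 scale. Leaving out 1 library gave 0 to 6 members called higher, 0 to 17 called lower, and 20 to 32 with every KO value below WT. The 32 came without WT replicate 1, where 32.7% of all tested genes lay below WT, against 19.5% with all 6 libraries. With both replicates 1 left out, 8 members were called higher and 29 lower (28.4% and 27.3% of all tested genes). Then 13 members lay above and 37 below WT in every library (39.8% and 40.5% of all tested genes). Partner genes called higher numbered 1 at a mean of at least 5 TPM (8.79% of all tested genes), 8 without both replicates 1 (28.4%), and 0 to 2 without 1 library. Without the filter 1 of 82 was called higher (11.9% of all tested genes), outside the 78 tested otherwise. Of those 78, limma called 0 higher and 3 had an unadjusted p under 0.05 in that direction. Partner genes called lower numbered 14 under median-ratio scaling (8.39% of all tested genes), 5 without the variance trend (4.27%) and 50 without both replicates 1 (27.3%). Without 1 library they numbered 0 to 33, the 33 without WT replicate 1 (14.2% of all tested genes). Where no partner gene was called (limma), between 16 and 24 had an unadjusted p under 0.05. The deviations of same-numbered libraries from their group means correlated at -0.20, -0.15 and -0.16. Deviations within a group depend on each other, so these values cannot settle whether the replicate numbers pair the samples. With the replicate number as a block, 2 members were called higher (2.21% of all tested genes) and 1 lower (0.243%), and 0 partner genes in either direction. The members' median stayed between -0.134 and -0.0841. Of 1063 combinations of a member and an alternative, 58 lost a call and 54 gained one, 1 reversed (Dnajb5) and 26 changed sign while uncalled; the cause was not tested. Taking Hspa1a and Hspa1b as 1 gene was added after seeing the data. Depth is unknown, and values under 1 TPM are limited by rounding to 1 decimal.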
